A study of Mus musculus with 27 samples.

Results

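Loss of Raptor was examined in resting mouse CD8 T cells kept alive with interleukin 7 (IL-7), by comparing 3 RNA libraries of Raptor-deleted cells (Raptor KO) with 3 libraries of wild-type cells across all genes. These 6 libraries, out of 27 in 9 groups of 3, were chosen by their sample titles, and no measured value entered the choice. The wild-type cells came from B6 mice, which carry neither a Cre transgene nor a floxed allele. The Raptor KO cells came from B6 mice with floxed Rptor alleles (Rptortm1.1Dmsa) and a Cre driven by the Cd4 promoter (B6-Tg(Cd4-cre)1Cwi). That promoter is switched on in the thymus in precursors of both CD4 and CD8 T cells, so the deletion precedes the culture, and effects of Cre itself cannot be told apart from those of Raptor loss. Lymph node and spleen cells were pooled, and untouched CD8 cells were enriched with magnetic beads and cultured for 48 hours with 5 ng/ml IL-7. Dead cells were then removed by sorting for cells negative for the phosphatidylserine probe MFG-E8 and for 7-AAD (a dead cell dye). Ages are not given in the labels, nor is it said whether each library came from a separate mouse, so p-values measure the spread between these libraries, which may be in part technical. In the other groups used below, CD4 cells rested in the same IL-7 culture, and CD8 cells were stimulated for the same time on plates coated with anti-CD3 and anti-CD28, each as wild type and Raptor KO.

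Raptor is the scaffold of mTOR complex 1 (mTORC1), which binds substrates of the kinase mTOR. The complex sits on the lysosome surface, where Rag GTPases recruit it when amino acids are plentiful, and it promotes protein, lipid and nucleotide synthesis while holding back autophagy. Active mTORC1 keeps the transcription factors TFEB, TFE3 and MITF in the cytoplasm, and these bind an E-box called the CLEAR element, with the core GTCACGTG, in genes of the lysosome and of the Rag pathway. Naive T cells in IL-7 survive without dividing and have low mTORC1 activity, whereas antigen receptor stimulation raises it strongly.

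The 6 libraries held 10194096 to 13359250 counts each, of which 82.9% to 84.2% fell on Rn45s, the ribosomal RNA precursor, which was left out. Of the remaining 1665314 to 2198387 counts, 410808 to 616476 were of protein-coding genes. The median count of a tested gene in a single library was 22, taken over all tested genes and the 6 libraries. Raptor KO library 3 stood apart: small nuclear and nucleolar RNAs took 67.0% of its counts without Rn45s against 43.6% to 53.9% in the other 5, and protein-coding genes took 18.7% against 24.2% to 33.0%. Raptor KO library 1 held Xist and no Y-linked counts, as from female mice, and the other 5 held Y-linked counts. Library 1 of the Raptor KO groups of resting CD4 and stimulated CD8 cells was likewise Xist-positive, while their other libraries and those of wild type were Y-positive. Counts led by these libraries are therefore also given without them. Cd8a, which encodes the CD8 alpha chain, was at 293, 304 and 250 CPM in the Raptor KO libraries and at 289, 309 and 403 CPM in the wild-type libraries, and Cd4 stayed at or under 5.49 CPM in all 6. Cd8b1, the beta chain, was at 252, 289 and 138 CPM in Raptor KO and 299, 330 and 323 CPM in wild type, lower in every Raptor KO library without passing (log2 fold change -0.48 ± 0.18, edgeR adjusted p = 0.289). CPM are counts scaled to a common total of tested-gene counts with TMM factors (trimmed mean of M-values), and they do not correct for gene length. Summed levels of 17 myeloid markers were 36.5 to 57.3 CPM in Raptor KO and 37.8 to 53.9 CPM in wild type, and those of 16 B cell markers 119 to 152 and 106 to 151 CPM. Ighm made up most of the B cell sum (means of 106 and 104 CPM), 12 of the 16 had a higher mean in Raptor KO, and of 6 tested 5 were above 0 (median log2 fold change 0.56) and 0 passed in edgeR, also 0 at an unadjusted p under 0.05. In bulk RNA, fewer cells expressing a gene and less of its RNA per cell cannot be told apart.

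Rptor itself, on chromosome 11 at 119602905 to 119899576 (GRCm38, plus strand), had 39.7, 41.9 and 34.8 CPM in the Raptor KO libraries and 37.6, 52.6 and 45.7 CPM in the wild-type libraries. The groups overlapped, and the log2 fold change was -0.21 ± 0.19 (SE; edgeR adjusted p = 0.802). Counts were summed over the whole gene, and the Cre-deleted part was not counted separately, so this gene-level value does not check the deletion, and the cells are called Raptor KO after their labels. Of the mTOR complex subunits, 0 of 6 tested passed in edgeR, also 0 at an unadjusted p under 0.05, and their log2 fold changes ran from -0.26 to 0.00. Rictor, the scaffold of the second mTOR complex, was at 129, 141 and 161 CPM in Raptor KO and 139, 135 and 165 CPM in wild type.

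Few genes were called between Raptor KO and wild type in these cells, while 1035 (9.86%) had an unadjusted p under 0.05 in edgeR. Of 10493 genes tested with edgeR's quasi-likelihood test, 118 passed an adjusted p of 0.05 (1.12%), 53 of them higher (0.505%) and 65 lower (0.619%) in Raptor KO. These shares, and the 9.86% with an unadjusted p under 0.05, are the background for every list count at rest below. The 3 and 3 libraries did not overlap for 117 of these 118, against 1491 of all tested genes (14.2%). The fitted change was past 2-fold for 69 of the 118, and 19 genes passed when tested against a 1.5-fold minimum. A mean of at least 10 CPM was reached by 109 of the 118. The median log2 fold change was 1.21 among higher and -1.05 among lower genes, and over all tested genes it was 0.00. Without Raptor KO library 3, 34 genes were higher and 35 lower, and without Raptor KO library 1, 42 and 55. The total of 118 fell to 69 without Raptor KO library 3, 73 without Raptor KO library 2, 58 without wild-type library 1 and 65 without wild-type library 2, and 41 of the 118 passed in all 6 fits that left out 1 library. When libraries were scaled to totals that include Rn45s, in place of TMM, 23 genes passed, 15 higher and 8 lower, so the split itself moved with the scaling.

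**Figure D1:**
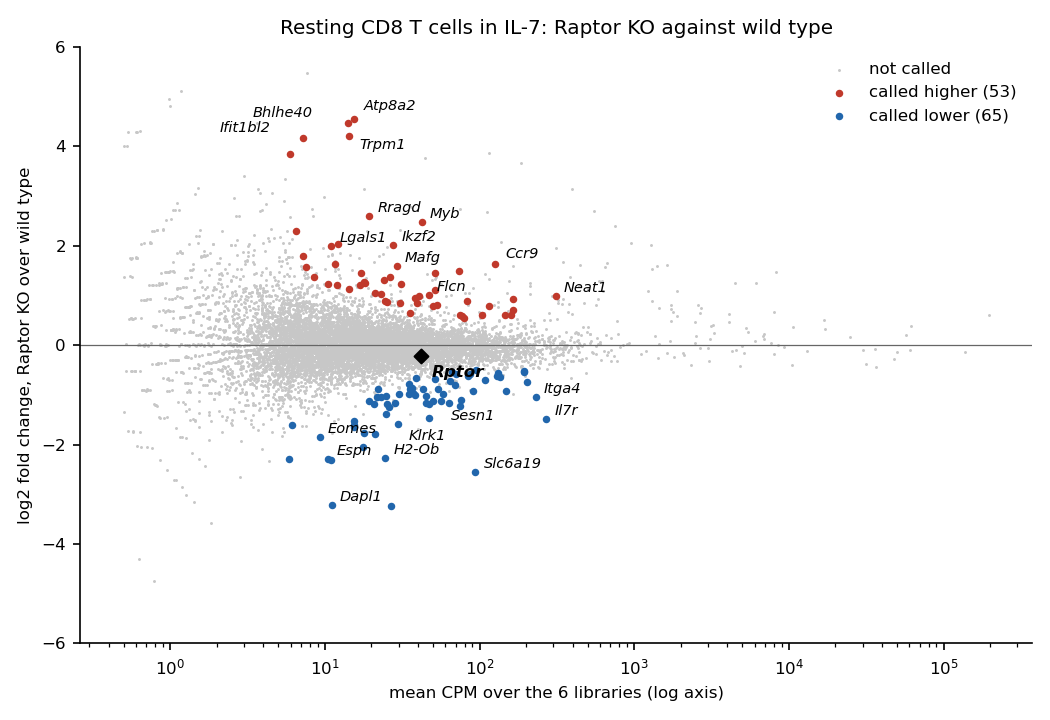
Change against level for the tested genes: the x axis is the mean CPM over the 6 libraries on a log scale, the y axis the log2 fold change of Raptor KO over wild type, red and blue points the 53 genes called higher and the 65 called lower, grey points genes not called, and the black diamond Rptor. The strongest rises (Atp8a2, Bhlhe40, Trpm1, Ifit1bl2) exceed 4 on the log2 scale, Slc6a19 and Dapl1 are among the strongest falls, and Rptor lies near 0; 251 genes under 0.5 CPM or beyond 6 on the y axis are not drawn.

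Among genes that feed nutrient signals to mTORC1, the Rag GTPase gene Rragd rose most. Rragd encodes RagD, which with RagA or RagB tethers mTORC1 to the lysosome, and it was at 25.6, 33.8 and 40.1 CPM in Raptor KO and at 8.51, 2.46 and 4.88 CPM in wild type. Every Raptor KO library lay at least 3 times above the highest wild-type library, and the log2 fold change was 2.60 ± 0.37 (edgeR adjusted p = 2.51e-05). Flcn, encoding folliculin, which acts on RagC and RagD as a GTPase-activating protein, was at 72.0, 55.4 and 59.7 CPM in Raptor KO and 27.0, 39.4 and 28.1 CPM in wild type. The groups were apart, with a log2 fold change of 1.00 ± 0.18 (edgeR adjusted p = 0.00103). Sesn1, encoding a sestrin that restrains mTORC1 when leucine is short, went the other way, at 35.99, 43.9 and 24.1 CPM in Raptor KO and 73.8, 88.7 and 69.5 CPM in wild type, a log2 fold change of -1.13 ± 0.23 (edgeR adjusted p = 0.00422). These 3 were the genes called among 34 tested in the list of mTORC1 inputs, beside 1.12% of all tested genes. The list's median log2 fold change was 0.03. All 3 were also called without Raptor KO library 1 and without Raptor KO library 3. Fnip1, encoding a folliculin partner, was at 43.3, 39.2 and 61.5 CPM in Raptor KO and 27.0, 23.8 and 34.2 CPM in wild type but did not pass (log2 fold change 0.73 ± 0.23, edgeR adjusted p = 0.165).

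Lysosomal genes leaned upward as a list, and a few of them passed. Other lists leaned as much, with median log2 fold changes of 0.25 (cytotoxic granule), 0.24 (glutathione and thioredoxin) and 0.24 (BCL2 family and death receptors). The mTOR complex subunits had a median of -0.21. Of 51 tested genes of the lysosome, its proton pump and autophagy, 3 were called higher and 0 lower, 12 had an unadjusted p under 0.05, 38 had a log2 fold change above 0, and the list median was 0.25, beside 0.00 over all genes. The shares over all tested genes were 1.12% called and 9.86% with an unadjusted p under 0.05. Without Raptor KO library 3, again 3 were higher with a median of 0.21, and without Raptor KO library 1, 1 was higher with a median of 0.16. With totals that include Rn45s, 0 passed and the median was 0.18. One of the 3 was Flcn. Gaa, encoding the acid alpha-glucosidase that breaks down glycogen in the lysosome, was at 26.8, 22.3 and 20.5 CPM in Raptor KO and 6.38, 14.8 and 9.76 CPM in wild type. The libraries did not overlap, and the log2 fold change was 1.21 ± 0.28 (edgeR adjusted p = 0.0181). The third, Atp6v0d1, a subunit of the proton pump that acidifies the lysosome, was at 15.9, 16.2 and 18.7 CPM against 5.67, 5.75 and 9.76 CPM, a log2 fold change of 1.21 ± 0.31 (edgeR adjusted p = 0.0363). Gaa missed the threshold without Raptor KO library 1 (edgeR adjusted p = 0.106), wild-type library 1 (0.194) or wild-type library 3 (0.0812). Atp6v0d1 missed it without any of the 3 Raptor KO libraries (0.066, 0.0888 and 0.145) or without wild-type library 1 (0.206) or 2 (0.168), with log2 fold changes from 1.06 to 1.54 throughout. Mcoln1, encoding the lysosomal calcium channel TRPML1, was at 26.8, 33.8 and 19.6 CPM in Raptor KO and 12.8, 15.6 and 11.6 CPM in wild type. Its libraries did not overlap between the groups, but it just missed the threshold (log2 fold change 1.04 ± 0.28, edgeR adjusted p = 0.0548). Lamp2, a major lysosome membrane protein, had a log2 fold change of 0.72 ± 0.24 (edgeR adjusted p = 0.179), and Ctsd, a lysosomal protease, one of 0.35 ± 0.17 (adjusted p = 0.49).

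Further genes of endosomes and lysosomes outside that list were among the 53 higher genes, and were singled out after their values were seen. Snx5, a sorting nexin of endosomes, was at 93.3, 114 and 119 CPM in Raptor KO and 58.9, 63.2 and 53.7 CPM in wild type, a log2 fold change of 0.89 ± 0.17 (edgeR adjusted p = 0.0012). Gga2, an adaptor that sorts cargo from the Golgi towards endosomes, had a log2 fold change of 1.64 ± 0.34, and P2rx4, an ATP-gated channel found on lysosomes and the cell surface, one of 1.36 ± 0.27. With 1 library left out, Gga2 missed the threshold without wild-type library 1 (edgeR adjusted p = 0.0509) and P2rx4 without wild-type library 3 (0.054), and with Rn45s in the totals both missed it (0.341 and 0.413). Atp6ap2, an accessory protein of the proton pump, and Cln3, a lysosome membrane protein, rose by 1.03 ± 0.26 and 0.90 ± 0.23 on the log2 scale (edgeR adjusted p = 0.0379 and 0.0415). Atp6ap2 missed the threshold whichever library was left out (edgeR adjusted p = 0.0805 to 0.16), and Cln3 without any library other than Raptor KO library 2 (up to 0.317).

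The promoters of the higher genes were searched for the CLEAR core, since TFEB, TFE3 and MITF bind it and mTORC1 controls them. RefSeq promoter windows of 300 bases (250 before and 50 after each start site, GRCm38.p6) were matched by symbol for 40 of the 53 higher and 54 of the 65 lower genes. GTCACGTG, read on both strands, was in a window of 9 of the 40 (22.5%) and 0 of the 54, beside 415 of 7777 tested genes with a window (5.34%) and 2.25% of all 32851 windows. The shorter E-box CACGTG, which GTCACGTG contains, was in 13 of 40 higher (32.5%), 4 of 54 lower (7.41%) and 12.5% of tested genes with a window. Gaa had only this shorter form. Rragd and Flcn were not among the 13, and a gene without a window would be missing as well. TCACGTGA, a palindromic E-box that also contains CACGTG and can overlap GTCACGTG, was in 2 of 40 higher (5%) and 0 of 54 lower genes beside 2.51%. TGAGTCA, the AP-1 site, was in 1 of 40 (2.5%) and 3 of 54 (5.56%) beside 3.97%, and GTAAACA, a forkhead site, in 3 of 40 (7.5%) and 4 of 54 (7.41%) beside 3.12%. The 9 genes are shown because they carry the full CLEAR core; the motif was picked with the gene list known, and no test was made. Each stretch is written 5′ to 3′ along the gene's strand with the motif in capitals, either as GTCACGTG or as its complement CACGTGAC. A match is a description, not a bound site. Each stretch ends 26 bases past the motif, or at the start site where that comes sooner. Where the motif spans the start site, the stretch stops at the motif's end. The end of a stretch is therefore not always the start site.
Atp6v0d1, chr8:105566062-105566095, minus strand: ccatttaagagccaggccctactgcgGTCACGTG
Cln3, chr7:126583324-126583385, minus strand: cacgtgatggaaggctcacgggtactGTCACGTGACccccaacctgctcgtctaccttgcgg
Gga2, chr7:122021194-122021227, minus strand: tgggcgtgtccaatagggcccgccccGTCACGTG
Mafg, chr11:120633555-120633614, minus strand: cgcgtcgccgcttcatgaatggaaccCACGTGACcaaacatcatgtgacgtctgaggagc
Tbcel, chr9:42472239-42472291, minus strand: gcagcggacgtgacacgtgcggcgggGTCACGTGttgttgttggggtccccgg
Cipc, chr12:86947300-86947342, plus strand: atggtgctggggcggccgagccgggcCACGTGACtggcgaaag
Klf6, chr13:5861418-5861477, plus strand: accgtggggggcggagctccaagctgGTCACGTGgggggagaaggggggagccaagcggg
Qsox2, chr2:26237399-26237432, minus strand: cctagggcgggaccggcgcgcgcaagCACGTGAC
Gk, chrX:85776844-85776903, minus strand: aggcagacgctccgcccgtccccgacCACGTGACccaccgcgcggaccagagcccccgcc

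In 8 of these 9 the motif begins between 58 and 3 bases before a RefSeq start site, and in Cln3 123 bases before one. Cln3 and Cipc each have 2 such start sites and Tbcel 3, and the Tbcel window lies inside the span GENCODE gives that gene (42412316 to 42507809). Cln3 has the full palindrome GTCACGTGAC.

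The 9 genes shown were taken from those called higher, so their rise follows from that choice. Of the 6 fits that left out 1 library, Mafg, Tbcel and Cipc passed in 6, Gga2 in 5 and Klf6 in 4. Qsox2 passed in 2, Atp6v0d1 and Cln3 in 1 and Gk in 0. Tbcel, a tubulin-binding relative of the tubulin-folding cofactor E, was at 110, 117 and 99.8 CPM in Raptor KO and 30.5, 46.0 and 40.3 CPM in wild type, a log2 fold change of 1.49 ± 0.19 (edgeR adjusted p = 2.00e-06). Mafg, a small Maf protein that pairs with the antioxidant regulator NRF2, was at 43.3, 34.5 and 54.4 CPM against 12.1, 11.5 and 18.9 CPM, a log2 fold change of 1.59 ± 0.23 (edgeR adjusted p = 2.69e-05). Neither gene's groups overlapped, and both passed whichever library was left out. Cipc, which represses the clock factor CLOCK, rose by 0.99 ± 0.20 on the log2 scale (edgeR adjusted p = 0.00284). Within 1 Mb of Rptor on chromosome 11, 39 genes were tested and 2 were called (5.13%), Mafg and Gaa, 726 and 317 kb away; the flank of an engineered allele can carry sequence from the strain it was made in, and its part in these calls was not tested.

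Genes of the glutathione and thioredoxin systems also leaned upward, with 17 of 21 tested above 0 and a median log2 fold change of 0.24. Of the 21, 1 was called, beside 1.12% of all tested genes. The called gene was Txnrd1, the cytosolic thioredoxin reductase, at 75.6, 54.7 and 73.1 CPM in Raptor KO and 34.8, 40.2 and 40.9 CPM in wild type (log2 fold change 0.81 ± 0.17, edgeR adjusted p = 0.00389). It missed the threshold without wild-type library 1 (edgeR adjusted p = 0.0529). Nfe2l2, which encodes NRF2, was at 55.5, 65.5 and 58.8 CPM against 41.9, 32.0 and 29.9 CPM and did not pass (log2 fold change 0.79 ± 0.22, edgeR adjusted p = 0.0548).

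The largest rises were of genes that wild-type resting cells barely express. Atp8a2, a phospholipid flippase of the cell membrane, was at 22.6, 22.3 and 43.7 CPM in Raptor KO and at 0, 1.64 and 1.83 CPM in wild type. With 119 counts against 5, the ratio was 23.9 (95% exact interval 9.98 to 75.1, counting error only), and the fitted log2 fold change was 4.56 ± 0.55 (edgeR adjusted p = 2.00e-06). Trpm1, a cation channel of melanocytes and retina and a known MITF target in melanocytes, was at 21.4, 27.7 and 33.0 CPM against 2.84, 0.821 and 0.610 CPM. Its 113 counts against 6 gave a ratio of 18.95 (95% exact interval 8.44 to 52.7), and the log2 fold change was 4.21 ± 0.61 (edgeR adjusted p = 5.44e-05). Ifit1bl2, of the interferon-induced Ifit family, had 59 counts against 3, a ratio of 19.8 (95% exact interval 6.45 to 98.7; edgeR adjusted p = 0.000284), and reads may be shared with near-identical family members. It fell outside the rule for named genes and was picked after its values were seen. These 3 genes passed in all 13 alternative fits made for single genes. Of 25 tested genes of the interferon response, 0 passed in edgeR and 3 had an unadjusted p under 0.05, with a median log2 fold change of 0.14. Rhob, an endosomal small GTPase, rose from 6.38, 4.93 and 3.05 CPM in wild type to 17.1, 21.6 and 19.6 CPM in Raptor KO (log2 fold change 2.03 ± 0.37, edgeR adjusted p = 0.001). Neat1, the long noncoding RNA of nuclear paraspeckles, rose by 0.99 ± 0.18 on the log2 scale (edgeR adjusted p = 0.00138).

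**Figure D2:**
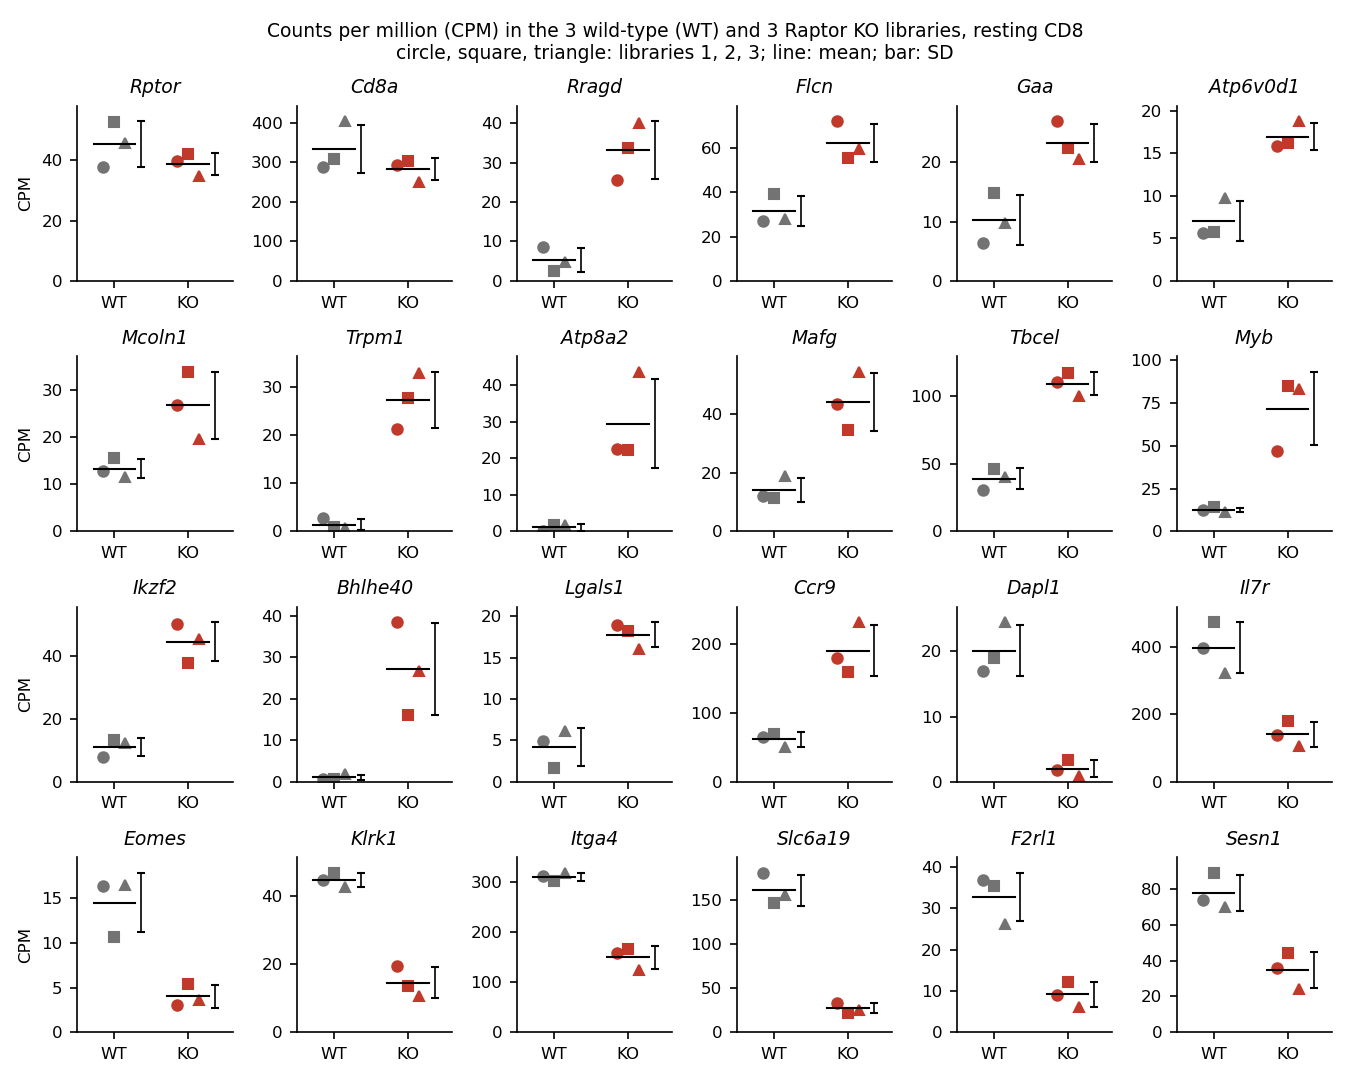
CPM of 24 genes in each of the 6 libraries, with grey symbols for wild type (WT), red for Raptor KO, circle, square and triangle for libraries 1, 2 and 3, a line for the mean and a bar for the SD. Rptor and Cd8a overlap between the groups, whereas the Rragd, Trpm1, Atp8a2, Myb, Ikzf2 and Ccr9 libraries of Raptor KO all lie above wild type and those of Dapl1, Slc6a19, Klrk1 and Il7r all lie below.

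Of 36 tested T cell transcription factors, 3 were called higher, Myb, Ikzf2 and Klf6, and 0 lower, beside 1.12% called of all tested genes. An unadjusted p under 0.05 was found for 10, beside 9.86% of all tested genes, and the median log2 fold change was 0.08. Myb, which supports precursor and memory T cells, was at 47.0, 85.1 and 82.9 CPM in Raptor KO and 12.8, 14.0 and 11.6 CPM in wild type (log2 fold change 2.48 ± 0.29, edgeR adjusted p = 2.91e-06). Ikzf2, which encodes Helios, was at 50.03, 37.8 and 45.5 CPM against 7.80, 13.1 and 12.2 CPM (log2 fold change 2.01 ± 0.33, edgeR adjusted p = 0.001). The lowest Raptor KO library was above the highest wild-type library for both genes, and both passed in all 13 alternative fits. Klf6 rose by 0.61 ± 0.13 (edgeR adjusted p = 0.00718) but missed the threshold without Raptor KO library 3 (0.0854) or wild-type library 2 (0.132). Bhlhe40, a basic helix-loop-helix repressor induced by T cell activation, was at 38.4, 16.2 and 26.7 CPM against 0.709, 0.821 and 1.83 CPM. Its 117 counts against 5 gave a ratio of 23.5 (95% exact interval 9.81 to 73.9), and the log2 fold change was 4.47 ± 0.69 (edgeR adjusted p = 0.00123; limma-voom adjusted p = 0.167).

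The paired regulators of CD8 effector and memory fate moved in opposite directions, though neither call was firm. Tbx21, which encodes T-bet, was at 11.0, 15.5 and 7.13 CPM in Raptor KO and 4.26, 2.46 and 3.05 CPM in wild type (log2 fold change 1.79 ± 0.46, edgeR adjusted p = 0.0415). Eomes, which encodes the related eomesodermin, was at 3.05, 5.41 and 3.57 CPM against 16.3, 10.7 and 16.5 CPM (log2 fold change -1.85 ± 0.48, edgeR adjusted p = 0.042). Tbx21 missed the threshold without any library other than Raptor KO library 3 (up to 0.238), and Eomes without any other than wild-type library 2 (up to 0.172). Both also missed it once a term marked the Xist-positive libraries, with log2 fold changes between 1.49 and 2.01 for Tbx21 and between -2.15 and -1.66 for Eomes over all alternatives.

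Markers of CD8 memory and effector differentiation had a median log2 fold change of -0.05, with 12 of 30 tested above 0. They were called in both directions, 3 higher and 3 lower, beside 0.505% and 0.619% of all tested genes. Without Raptor KO library 3 the counts were 2 and 2, without Raptor KO library 1 they were 1 and 2, and the median then ran from -0.24 to 0.06. Besides Tbx21, the higher genes were Lgals1, the lectin galectin-1, and Ly6c2, a Ly6C surface antigen of memory CD8 cells. Lgals1 was at 18.9, 18.2 and 16.0 CPM in Raptor KO and 4.97, 1.64 and 6.10 CPM in wild type (log2 fold change 2.00 ± 0.40, edgeR adjusted p = 0.00545). Ly6c2 was at 76.9, 85.8 and 64.2 CPM against 25.5, 27.9 and 29.9 CPM (log2 fold change 1.45 ± 0.34, edgeR adjusted p = 0.0363), a call that ended whichever library was left out (0.0669 to 0.175). Reads of Ly6c2 may be split with its near-identical neighbour Ly6c1. Besides Eomes, Klrk1 and Itga4 were lower. Klrk1, the activating receptor NKG2D, was at 19.5, 13.5 and 10.7 CPM in Raptor KO and 44.7, 46.8 and 42.7 CPM in wild type (log2 fold change -1.58 ± 0.29, edgeR adjusted p = 0.0012). Itga4, the integrin alpha 4 chain, was at 159, 167 and 124 CPM against 311, 302 and 318 CPM (log2 fold change -1.05 ± 0.18, edgeR adjusted p = 0.000747). Klrd1, which encodes CD94, was at 26.8, 25.7 and 4.46 CPM against 56.0, 50.9 and 49.4 CPM and did not pass (log2 fold change -1.39 ± 0.39, edgeR adjusted p = 0.0943). Among cytotoxic granule genes 1 of 12 was called, Cst7, the protease inhibitor cystatin F, at 40.9, 38.5 and 22.3 CPM against 12.8, 16.4 and 12.8 CPM (log2 fold change 1.31 ± 0.25, edgeR adjusted p = 0.00123).

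The summed marker level of NK and gamma-delta T cells was higher in every Raptor KO library, while the B cell sums given above overlapped. The 14 markers of NK and gamma-delta T cells summed to 66.5, 37.8 and 40.1 CPM in the Raptor KO libraries and to 14.2, 19.7 and 14.6 CPM in wild type, and 8 had a higher and 3 a lower mean in Raptor KO. The gamma-delta receptor chain gene Trdc led, at 35.4, 15.5 and 16.9 CPM against 5.67, 5.75 and 7.93 CPM (log2 fold change 1.81 ± 0.49, edgeR adjusted p = 0.0697). The NK receptor genes Klra1, Klra8 and Klre1 had 0 counts in all 6 libraries, and Ncr1, Klrb1c and Klra7 had at most 4 in any library. None of the 4 tested members passed in edgeR, while all 4 had an unadjusted p under 0.05, beside 9.86% of all tested genes. Trac, the constant region of the alpha chain that most CD8 T cells carry, rose as well, at 140, 160 and 140 CPM against 79.4, 77.2 and 96.4 CPM (log2 fold change 0.80 ± 0.15, edgeR adjusted p = 0.00103). The part of such cells in the changes of Ikzf2, Tbx21, Lgals1, Ly6c2 and Cst7 was not tested.

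Genes of naive quiescence and lymph node homing did not move together. Of 30 tested, 1 was called higher, Ccr9, and 3 lower, Dapl1, Rapgef4 and Il7r, beside 1.12% called of all tested genes. An unadjusted p under 0.05 was found for 12, beside 9.86% of all tested genes, and the median log2 fold change was -0.04. Ccr9, the chemokine receptor for homing to the gut, was at 180, 160 and 232 CPM in Raptor KO and 66.0, 69.8 and 50.02 CPM in wild type (log2 fold change 1.62 ± 0.24, edgeR adjusted p = 0.000255). Dapl1, a marker of naive and resting T cells, was at 1.83, 3.38 and 0.891 CPM against 17.0, 18.9 and 24.4 CPM (log2 fold change -3.22 ± 0.43, edgeR adjusted p = 6.98e-06). Both genes' libraries were far apart, and both calls held in all 13 alternative fits. Rapgef4, a cyclic AMP-activated exchange factor for Rap, had a log2 fold change of -1.16 ± 0.24 (edgeR adjusted p = 0.00422) and missed the threshold without Raptor KO library 3 (0.0619). The homing receptor Ccr7 had a log2 fold change of -0.15 ± 0.16 (edgeR adjusted p = 0.853), Klf2, which keeps T cells quiescent, one of 0.14 ± 0.23 (0.916) and Tcf7 one of 0.27 ± 0.13 (0.495). Integrin beta 7, which pairs with alpha 4 in gut homing, is encoded by Itgb7, at 192, 192 and 192 CPM in Raptor KO and 125, 125 and 126 CPM in wild type. Its log2 fold change of 0.62 ± 0.16 passed (edgeR adjusted p = 0.0456) but missed the threshold whichever library was left out (0.0992 to 0.161).

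Il7r, the receptor chain for the cytokine in the medium, was at 138, 180 and 106 CPM in Raptor KO and 397, 471 and 322 CPM in wild type. Every Raptor KO library lay below every wild-type library, and the log2 fold change was -1.48 ± 0.35 (edgeR adjusted p = 0.0456). The direction held in all 13 alternative fits, from -1.70 to -1.33, but the call ended whichever library was left out (edgeR adjusted p = 0.057 to 0.198). It was the 1 called gene of 23 tested in the IL-7 receptor, common gamma chain and STAT5 list, whose median was 0.10. Among genes of PI3K, Akt and FOXO signalling, the kinase gene Akt1 had a log2 fold change of 0.65 ± 0.17 (edgeR adjusted p = 0.0431) and missed the threshold without any library other than Raptor KO library 3 (up to 0.199).

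Of 28 tested genes of the T cell receptor complex and proximal signalling 1 was called, Ptpn6, which was higher. Of 22 costimulatory and inhibitory receptors 2 were called, Pecam1 and Cd5, both lower, beside 1.12% called of all tested genes. Ptpn6, the inhibitory phosphatase SHP-1, was at 73.8, 66.2 and 71.3 CPM in Raptor KO and 29.1, 28.7 and 39.0 CPM in wild type (log2 fold change 1.11 ± 0.17, edgeR adjusted p = 0.000113). Pecam1, an inhibitory adhesion receptor, was at 37.2, 31.1 and 25.8 CPM against 57.5, 75.6 and 73.8 CPM (log2 fold change -1.12 ± 0.20, edgeR adjusted p = 0.00085). Cd5, a further inhibitory receptor, fell by 0.87 on the log2 scale (SE 0.19, edgeR adjusted p = 0.00761), and missed the threshold without Raptor KO library 1 (0.0628) or wild-type library 1 (0.109). Zfp36l2, an RNA-binding protein that destabilises messages, rose by 0.70 ± 0.14 (edgeR adjusted p = 0.00248).

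The smallest adjusted p of any tested gene belonged to a transporter. Slc6a19, the neutral amino acid transporter B0AT1, was at 33.6, 22.3 and 25.8 CPM in Raptor KO and 180, 146 and 156 CPM in wild type. The groups were 5.85-fold apart, with a log2 fold change of -2.55 ± 0.21 (edgeR adjusted p = 9.33e-11). Slc3a2, the heavy chain that carries several amino acid transporters to the surface, rose instead, at 50.6, 60.1 and 40.1 CPM against 23.4, 26.3 and 28.7 CPM (log2 fold change 0.95 ± 0.17, edgeR adjusted p = 0.000853). It was the 1 called of 18 tested nutrient transporters, whose median was -0.16, and the 1 called of 19 ATF4 response genes, whose median was 0.00. F2rl1, the protease-activated receptor PAR2, was at 9.15, 12.2 and 6.24 CPM against 36.9, 35.3 and 26.2 CPM (log2 fold change -1.79 ± 0.33, edgeR adjusted p = 0.00103). H2-Ob, a chain of the class II accessory molecule DO, had a log2 fold change of -2.27 ± 0.38 (edgeR adjusted p = 0.000655), and Espn, an actin-bundling protein, one of -2.28 ± 0.43 (edgeR adjusted p = 0.0014). Cd55, which protects cells from complement, had one of -1.18 ± 0.21 (edgeR adjusted p = 0.000748). Racgap1, a regulator of cytokinesis, was at 12.8, 12.8 and 16.0 CPM against 34.8, 27.1 and 44.5 CPM (log2 fold change -1.38 ± 0.24, edgeR adjusted p = 0.000695), whereas 0 of 46 tested cell division genes passed in edgeR and 2 had an unadjusted p under 0.05.

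Of the biosynthetic genes that mTORC1 is known to control, edgeR called none in resting cells among 81 cytosolic ribosomal proteins, 34 translation factors, 49 ribosome biogenesis factors, 20 aminoacyl-tRNA synthetases, 14 serine and one-carbon enzymes, 25 cholesterol genes, 21 glycolytic genes, 73 nuclear oxidative phosphorylation genes and 36 proteasome subunits. At an unadjusted p under 0.05 the counts were 3, 0, 5, 1, 1, 5, 5, 3 and 0 in that order, beside 1035 of all 10493 tested genes (9.86%). Their median log2 fold changes lay between -0.12 (glycolysis) and 0.06 (serine and one-carbon enzymes). In stimulated CD8 cells 15 of the same 20 synthetases were called lower in Raptor KO (median -1.01). So were 16 of 19 ATF4 response genes (-2.64), 19 of 25 cholesterol genes (-0.85) and 14 of 21 glycolytic genes (-1.16). Of the other lists, 12 of 81 ribosomal protein genes were higher and 0 lower (median 0.32), 2 of 34 translation factors were higher and 2 lower (-0.06), 9 of 49 ribosome biogenesis factors were lower (-0.28), and 14 of 36 proteasome subunits were lower and 1 higher (-0.41). Serine and one-carbon enzymes had 8 lower and 1 higher of 14 (-0.82), and oxidative phosphorylation genes 12 lower and 1 higher of 73 (-0.20). The test of the difference between stimulated and resting cells passed for 11 synthetases, 7 ATF4 response genes, 4 cholesterol genes and 9 glycolytic genes, all towards a lower Raptor KO level in stimulated cells, and for 2 ribosomal protein genes in the opposite direction. At a median of 22 counts per gene and library, a small shift of a single gene at rest would not be detectable.

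**Figure D3:**
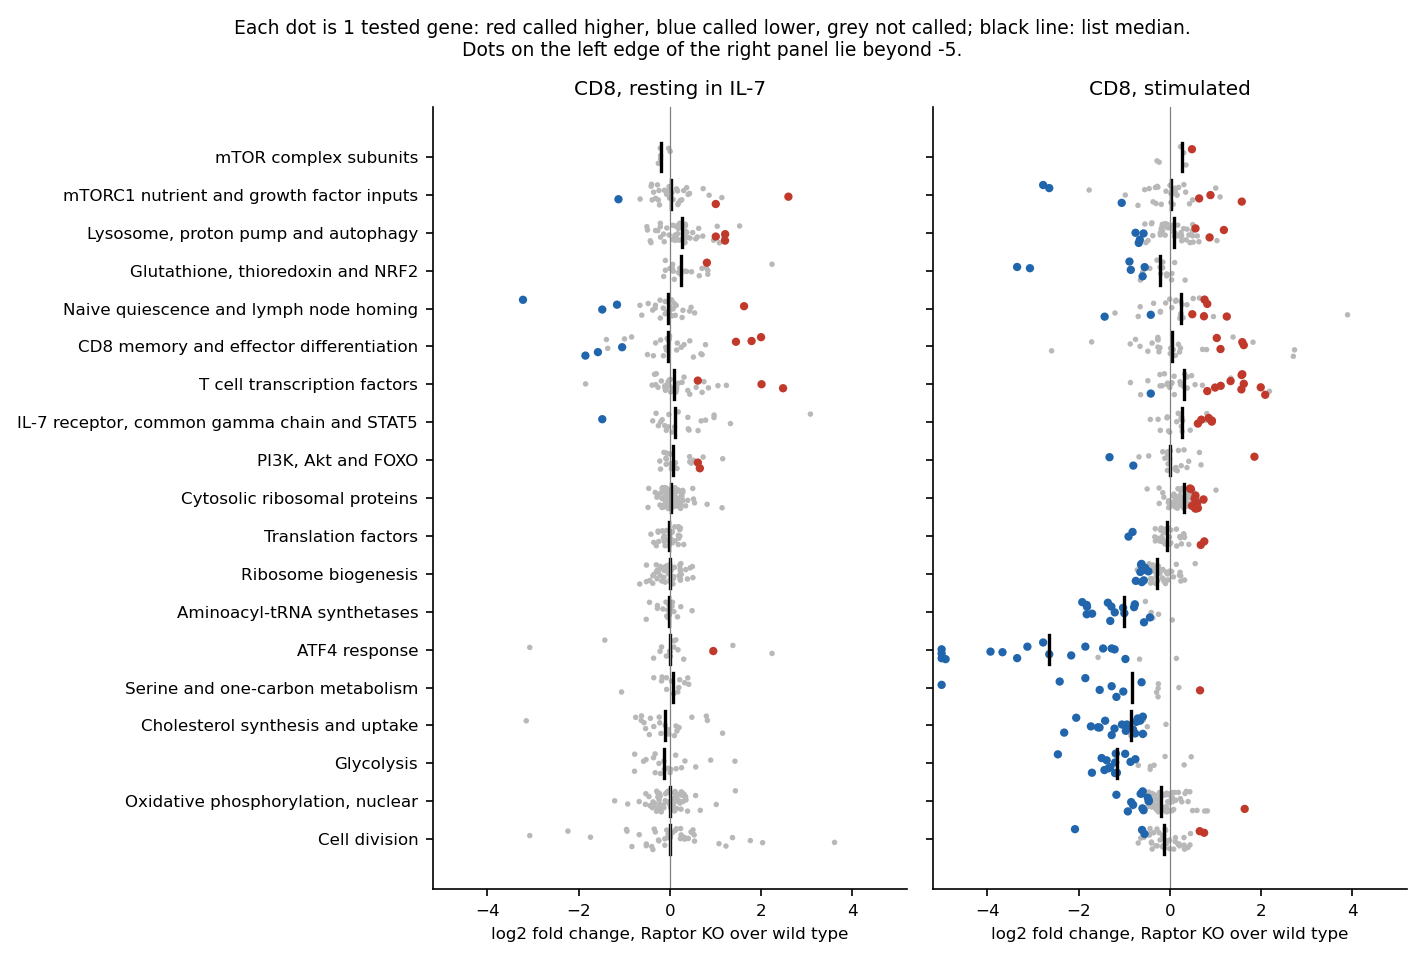
Log2 fold change of Raptor KO over wild type for the tested genes of 19 lists in CD8 cells resting in IL-7 (left) and stimulated (right), where each dot is a gene, red called higher, blue called lower, grey not called, and the black line is the list's median. At rest few genes are called, and the medians lie from -0.21 (mTOR complex subunits) to 0.25 (lysosome), with the glutathione list at 0.24. In stimulated cells the synthetase, ATF4, cholesterol and glycolysis lists have medians from -2.64 to -0.85; 4 dots beyond -5 are drawn at the left edge.

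Resting CD4 cells of the same genotypes gave fewer calls, 10 higher (0.0953%) and 5 lower (0.0477%), 0.143% of all tested, and 14 of those 15 were also called in resting CD8 cells with the same sign. In both subsets Raptor KO library 1 was the Xist-positive one, and the labels do not say whether CD4 and CD8 libraries of a number share mice, so the subsets may not be independent. The shared higher genes were Atp8a2, Myb, Rragd, Mafg, Ptpn6, Ccr9, Ifit1bl2, Trac, Flcn and Cst7, and the shared lower genes Dapl1, Itga4, F2rl1 and Map3k5, which encodes the stress kinase ASK1. In resting CD4 cells the log2 fold changes were 1.69 ± 0.33 for Rragd, 1.68 for Myb, 1.95 for Ccr9 and -2.88 for Dapl1. Of the 53 genes higher in CD8 cells, 49 were above 0 in CD4 cells, with a median of 0.42, and of the 65 lower, 61 were below 0, with a median of -0.46. The difference between the 2 resting subsets passed for 0 of 10493 genes in edgeR, DESeq2 and limma-voom alike, while 425 had an unadjusted p under 0.05 in edgeR, 43 of them among the 118. Because the 118 were picked on the CD8 libraries that enter this difference, a raised share among them follows from the choice. Trpm1 and Ikzf2 had log2 fold changes of 0.09 ± 1.06 and 0.15 ± 0.28 in CD4 cells and Slc6a19 one of -0.39 ± 0.47, but their difference from CD8 cells did not pass either.

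The same deletion was compared in stimulated CD8 cells. There, 1230 genes were called between Raptor KO and wild type (11.7%), 661 higher (6.3%) and 569 lower (5.42%) in Raptor KO. Of the 53 genes higher at rest 10 were higher and 2 lower there, while of the 65 lower at rest 14 were lower and 2 higher. Trpm1 (3.35 ± 0.56), Ikzf2 (2.09 ± 0.24), Rragd (1.58 ± 0.41), Myb (1.57) and Klf6 (1.12) were called higher on the log2 scale in both states, and Dapl1 (-1.43), F2rl1 (-2.68) and Sesn1 (-1.05) lower in both. The difference between the 2 states passed for 303 of all genes (2.89%), 178 upward (1.7%) and 125 downward (1.19%), and for 30 of the 118. The 118 were picked on resting CD8 libraries that also enter this difference, so their share cannot be compared with that of all genes. When Rn45s was part of the totals, the median of this difference over all genes moved from 0.04 to -0.43 and 38 genes passed. Slc3a2 reversed: its log2 fold change was 0.95 ± 0.17 at rest and -0.97 ± 0.14 in stimulated cells, where wild-type cells had 183 CPM and Raptor KO cells 93.3 CPM (difference -1.92, edgeR adjusted p = 3.93e-07). Bhlhe40, strongly higher at rest, differed by 0.23 in stimulated cells, in which wild-type cells already had 194 ± 50.7 CPM (SD, n = 3). Eomes, lower at rest, was higher in stimulated Raptor KO cells by 1.11 (difference 2.97, edgeR adjusted p = 0.00143). Gaa and Gga2 had log2 fold changes of -0.53 and -0.54 in stimulated cells, which did not pass there, and their differences from rest did (edgeR adjusted p = 0.00245 and 0.00194).

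**Figure D4:**
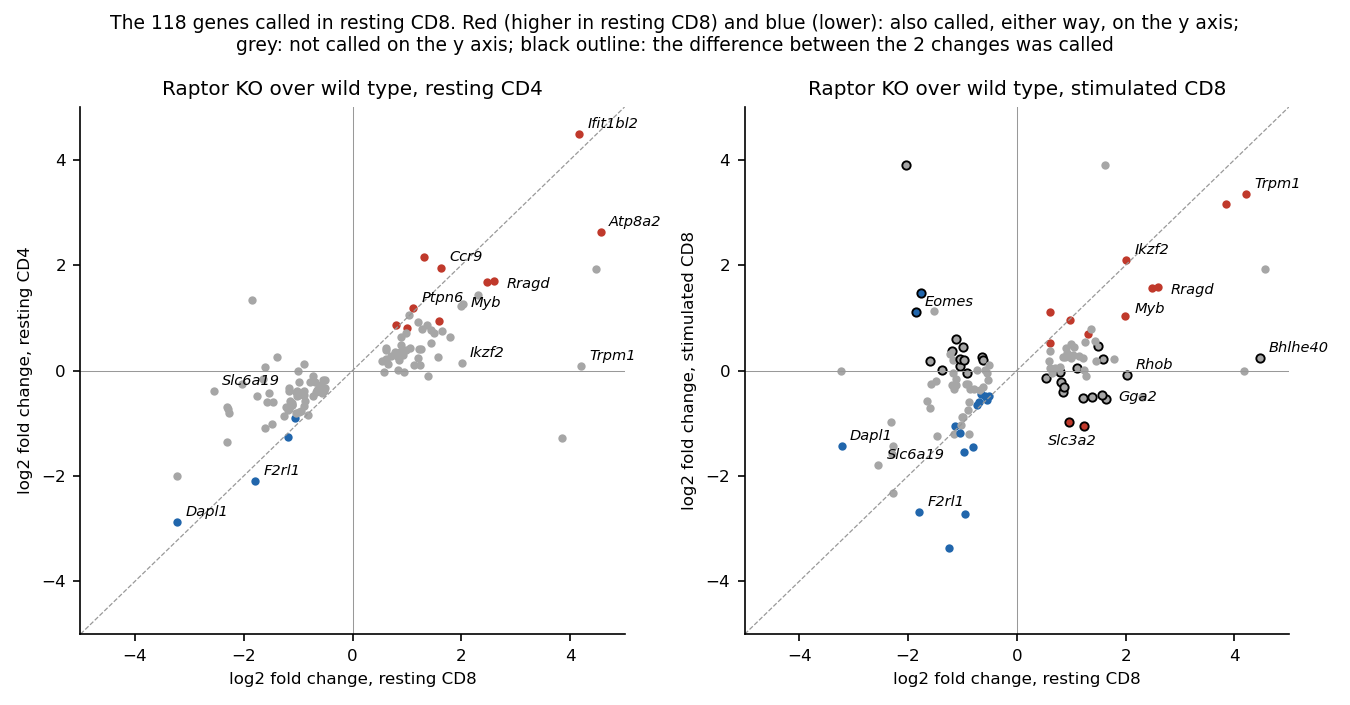
The 118 genes called in resting CD8 cells, with their log2 fold change (Raptor KO over wild type) at rest on the x axis and in resting CD4 cells (left) or stimulated CD8 cells (right) on the y axis. Red (higher at rest in CD8) and blue (lower) mark genes also called on the y axis, grey those not called there, and a black outline the 30 genes whose difference between resting and stimulated CD8 passed; most points of the left panel share their sign, and in the right panel Slc3a2 and Eomes have opposite signs on the 2 axes.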

How the data were processed

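RNA was measured in sorted T cells after ultrasound fragmentation, adaptor ligation and 12 to 14 PCR cycles, per the labels' protocols, and no molecular identifiers are mentioned. The authors deposited raw counts per gene (whole numbers), aligned with STAR 2.6.0a to GRCm38 per the submitters' processing notes; the sources used here do not name the counting program, annotation or strand setting, so antisense and overlapping genes cannot be told apart. Of 26802 rows, 26765 matched GENCODE M21 by Ensembl ID. Rn45s, with 82.9% to 84.2% of the counts in the 6 libraries, was left out. Genes were kept by filterByExpr (minimum count 10, total 15), scaled by TMM and tested in edgeR 4.0.16 (R 4.3.3; robust quasi-likelihood, 1 mean per group, all 27 libraries sharing the spread, 18 residual degrees of freedom), with Benjamini-Hochberg adjustment over 10493 genes and a threshold of 0.05. The 2 differences between settings were contrasts in the same fit. Only the contrast of Raptor KO with wild type in resting CD8 cells was also run on simulated data, and the 2 differences were not. Alternatives used DESeq2 1.42.0, limma 3.58.1, other scalings and filters, a library-code block and each library left out. Replicates of a group differed by more than counting error. Named genes were the 15 highest and 15 lowest called genes with at least 10 CPM and no overlap, plus called or leading members of the lists; some are not reported here, and exceptions are marked. The comparison, members and lists were chosen with earlier results of these data known. CPM are relative to tested-gene counts after TMM scaling. Intervals cover counting error only.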

Additional observations from a re-analysis of the deposited data

Results flagged for a closer look

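Groups of 3 are too small for a test of single outlying libraries, so none was made. The change with Raptor loss differed between stimulated and resting CD8 cells, by the edgeR test of that difference over all genes, for 18 of the genes whose values are given here. The difference was negative, a lower log2 fold change in stimulated than in resting cells, for Bhlhe40 (-4.24), Gga2 (-2.18), Rhob (-2.11), Slc3a2 (-1.92), Gaa (-1.73), Mafg (-1.36), Ptpn6 (-1.07), Tbcel (-1.02), Txnrd1 (-1.02), Ctsd (-1.001), Trac (-0.82) and Tcf7 (-0.68). It was positive for Eomes (2.97), Serpinb9 (1.86), Ctsw (1.69), Cd55 (1.56), Racgap1 (1.39) and Itga4 (1.12). Ctsd, Ctsw, Serpinb9 and Tcf7 did not pass at rest, and all 4 passed in stimulated cells. In wild-type cells Cd55 and Itga4 were at 4.05 and 29.0 CPM when stimulated and at 65.7 and 310 CPM at rest.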

How the results depend on the processing

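The count of 118 genes stayed within 1.5 times under other size factors, filters, DESeq2 (94), limma-voom (113), fitting the 6 libraries alone (114), and 2 alternatives chosen after seeing the data, a term for the Xist-positive libraries (115) and protein-coding genes only (141). The genes were only partly the same. Of the 118, 86 passed with the 6 libraries alone, 88 in DESeq2, 89 with the Xist-positive term and 92 in limma-voom. Without a filter 96 of them passed, and with other size factors or protein-coding genes only 111. The count was 23 with Rn45s in the totals and 19 (12 higher, 7 lower) for changes tested against a 1.5-fold minimum, and leaving out 1 library gave 58 to 97. The replicate numbers follow a library code shared across groups. With that code as a replicate block, 197 genes passed (98 higher, 99 lower), the 118 among them. Deviations of same-numbered libraries correlated at 0.09, 0.00 and 0.12, and this was the best match for Raptor KO libraries 1 and 3. Raptor KO library 2 correlated best with wild-type library 3 (0.03). Libraries of unlike number correlated at -0.17 to 0.09. Correlations this weak cannot settle whether the numbers pair Raptor KO with wild type. The main fit did not take the numbers as pairs. Within a genotype they may mark a shared source, since library 1 of each Raptor KO group was Xist-positive. For resting CD8 minus CD4, 0 genes passed with that block and 0 with a block within genotype, which was chosen after seeing the data, and for stimulated minus resting CD8 415 and 411 passed. For resting CD8 minus resting CD4, 1 gene passed without a filter and 1 in a fit of those groups alone, and 0 whichever library was left out. For stimulated minus resting CD8, 38 genes (5 higher, 33 lower) passed with Rn45s in the totals and 65 against the 1.5-fold minimum. Of 921 values for 71 genes under alternatives, 770 kept their direction and side of the threshold and 138 of called genes lost the call. The sign turned for Rictor, whose log2 fold change ran from -0.1324 to 0.0649 with 1 library left out, and Klf2, from -0.0689 to 0.3144, neither of them called. No difference between groups in library makeup passed an exact permutation test (p = 0.3 to 0.7, where 0.1 is the smallest possible). Leaving out 1 library, the difference (Raptor KO minus wild type) ran from -18040 to 237200 for counts without Rn45s, from -0.525 to 0.06 percentage points for Rn45s, from -4.36 to 1.053 for protein-coding genes (0.015 without wild-type library 3) and from -0.4617 to 8.728 for small nuclear and nucleolar RNAs. Of 328 list medians under alternatives, 50 moved, 15 with a change of sign.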
